A study of Homo sapiens with 5 samples.

Results

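Aminoacyl-tRNA synthetases join each amino acid to its tRNA and so supply every ribosome of the cell. Most cytosolic enzymes and their mitochondrial counterparts are encoded by separate nuclear genes, and several cytosolic enzymes are held together in the multi-synthetase complex. MYC is known for its binding to genes of ribosome production and protein synthesis, E2F1 for genes of DNA replication and the cell cycle, and Fra-1, encoded by FOSL1, is a subunit of the dimeric factor AP-1. A list of 36 nuclear genes of these enzymes, which need not be the whole family, was chosen by name and not from binding values, out of 20098 protein-coding genes. The choice was nevertheless made with earlier results of these data known. The listed genes comprised 20 genes of cytosolic enzymes, among them GARS1 and KARS1 whose products also serve mitochondria, and 16 genes of mitochondrial enzymes. Each of the 36 symbols matched 1 gene of the GENCODE annotation, and the other 20062 protein-coding genes gave the background.

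The peak lists came from ChIP-Seq in LM2 cells, a lung-metastatic derivative of the triple-negative breast cancer cell line MDA-MB-231, and the question put to them here was which synthetase promoters each factor occupied. Its 5 samples were 1 ChIP library each for Fra-1, MYC, E2F1 and EZH2 and 1 input library, and for EZH2 and input no peak list was used here. The sample labels call the cells untreated, while a legend in the supplement links ChIP-Seq to LM2 lines carrying a control vector or shRNA, and which of these applied could not be settled here. The cells were fixed with 1% formaldehyde for 15 min before sonication and precipitation with 5 μg of antibody. With a single library per factor from 1 cell line there were no replicates, so no difference could be tested and all shares are descriptions.

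The lists held 17320 Fra-1, 4867 MYC and 36933 E2F1 peaks, called from 12931227, 23853621 and 18056168 filtered tags against the same 10758036 filtered input tags. A gene was counted as bound when a peak overlapped the window from 2 kb upstream to 2.5 kb downstream of any of its annotated transcription start sites (TSS). Fold enrichment is the pileup of fragments at the peak summit over the local background from the input, and the q-value, given as −log10, is adjusted within a library. The depths and peak numbers differed, so values were compared between genes within 1 factor.

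The synthetase genes carried E2F1 almost without exception, MYC at most of their promoters and Fra-1 at hardly any. E2F1 peaks lay at 34 of 36 promoters (94.4%), against 61.2% of the other protein-coding genes. MYC peaks lay at 21 of 36 (58.3%), against 17.8%. Fra-1 peaks lay at 2 of 36 (5.56%), against 13.3% of other genes. That contrast narrowed when only the canonical start site of each gene was counted, where the share was still 2 of 36 but fell to 7.2% in the others. Promoters with all 3 factors numbered 2 of 36 (5.56%), close to the 4.67% of other genes, and these were YARS1 and CARS1. Other genes bound by MYC were nearly all bound by E2F1 as well, so the MYC share was also taken among E2F1-bound genes alone. There it was 21 of 34 (61.8%) for the synthetases and 28.9% for the others.

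**Figure D1:**
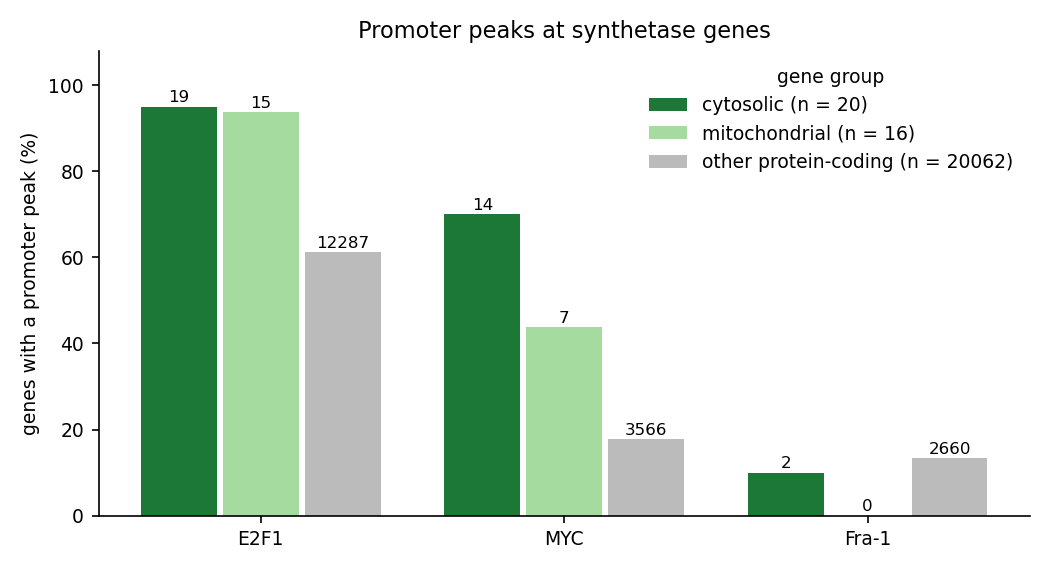
Percent of genes with a promoter peak of Fra-1, MYC and E2F1 among cytosolic synthetase genes (20), mitochondrial synthetase genes (16) and the other protein-coding genes (20062). MYC reached 70.0% of cytosolic and 43.8% of mitochondrial synthetase genes against 17.8% of other genes, while Fra-1 reached none of the mitochondrial genes.

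The cytosolic genes carried MYC more often than the mitochondrial ones, 14 of 20 (70.0%) against 7 of 16 (43.8%), and both shares were above the 17.8% of other genes. E2F1 hardly separated them, with 19 of 20 and 15 of 16. Among the 7 listed genes of the multi-synthetase complex, MYC was found at 6, EPRS1, IARS1, LARS1, MARS1, QARS1 and KARS1, and was missing only from RARS1, the arginyl enzyme. Of the 13 cytosolic genes outside the complex, 8 had a MYC peak. The enzymes also fall into 2 structural classes by the fold of their catalytic domain, and MYC lay at 12 of 18 genes of class I and 8 of 17 of class II, with EPRS1, which joins a domain of each class, counted in neither.

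Taken by amino acid, 16 amino acids had in the list a separate cytosolic and mitochondrial enzyme. MYC lay at genes of both compartments for 5 of them, namely glutamate, methionine, phenylalanine, tryptophan and tyrosine. It lay at the cytosolic side alone for 6 (alanine, cysteine, isoleucine, leucine, proline and threonine), at the mitochondrial side alone for 2 (arginine and serine) and at neither for 3 (asparagine, histidine and valine). Valine is counted there only because neither of its genes had a peak of any factor, and both lie in a stretch of chromosome 6 without any listed peak, so they cannot be scored as unbound. Glutamine, glycine and lysine had 1 listed gene each, and QARS1, GARS1 and KARS1 were all bound. For proline the cytosolic activity is part of EPRS1, which charges glutamate as well, so that gene was counted under both amino acids.

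The strongest MYC peak of the family belonged to YARS1, the cytosolic tyrosyl enzyme (ENSG00000134684, chr1:33240838-33283632, minus strand). It reached a fold enrichment of 25.5 with a −log10 q of 59.3 and a summit pileup of 50 fragments, and only 8 of the 3566 other MYC-bound genes had a higher fold. FARSB, the beta subunit of cytosolic phenylalanyl-tRNA synthetase, followed with a fold of 15.5, a −log10 q of 23.2 and a pileup of 21. EARS2, the mitochondrial glutamyl enzyme, had 14.9, 21.8 and 19 in the same order. These 3 genes stood in the top few percent of MYC-bound promoters, with 107 other genes above FARSB and 124 above EARS2. IARS1, the cytosolic isoleucyl enzyme, had a fold of 13.9, a −log10 q of 32.1 and a pileup of 40. KARS1, the lysyl enzyme of both compartments, had 9.93, 11.2 and 13. The next was CARS1, the cytosolic cysteinyl enzyme, with 9.92, 11.6 and 14, and these 6 genes alone lay in the upper quartile of the other genes.

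The remaining 15 MYC-bound members had folds from 4.99 at FARSA, the alpha subunit of the cytosolic phenylalanyl enzyme, to 8.08 at AARS1, the cytosolic alanyl enzyme. The 2 subunits of that phenylalanyl enzyme thus stood at opposite ends of the range, FARSB at 15.5 and FARSA at 4.99. Over all 21 genes the median fold was 7.05, against 7.22 in the other MYC-bound genes, and 10 of 21 lay above that median. The family therefore stood apart from the other protein-coding genes in how many promoters had a MYC peak, not in the usual height of these peaks. Pileups at the summits ran from 7 to 50 fragments. Several calls were close to the limit of the list, a −log10 q of 2, with 3.26 at EPRS1, 3.49 at YARS2 and 3.79 at FARSA as the lowest. At a −log10 q of at least 5, 15 of the 21 genes were left, 10 cytosolic and 5 mitochondrial. That is 15 of all 36 synthetase genes, beside 12.7% of all other protein-coding genes, a share that had been 17.8%.

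The width of the window made little difference to these calls. Of the bound genes, those whose MYC peak began farthest from a TSS were SARS2 (521 bp), the mitochondrial seryl enzyme, and YARS2 (351 bp), the mitochondrial tyrosyl enzyme. Of the unbound genes, the nearest MYC peaks were 9780 bp away at CARS2 and 11220 bp away at TARS3. The distance is taken from the edge of the peak to any TSS of the same gene, and no member had its nearest MYC peak between these values. For Fra-1 the farthest peak inside was at CARS1 (1125 bp) and the nearest outside were at TARS2 (3641 bp) and LARS2 (4058 bp).

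**Figure D2:**
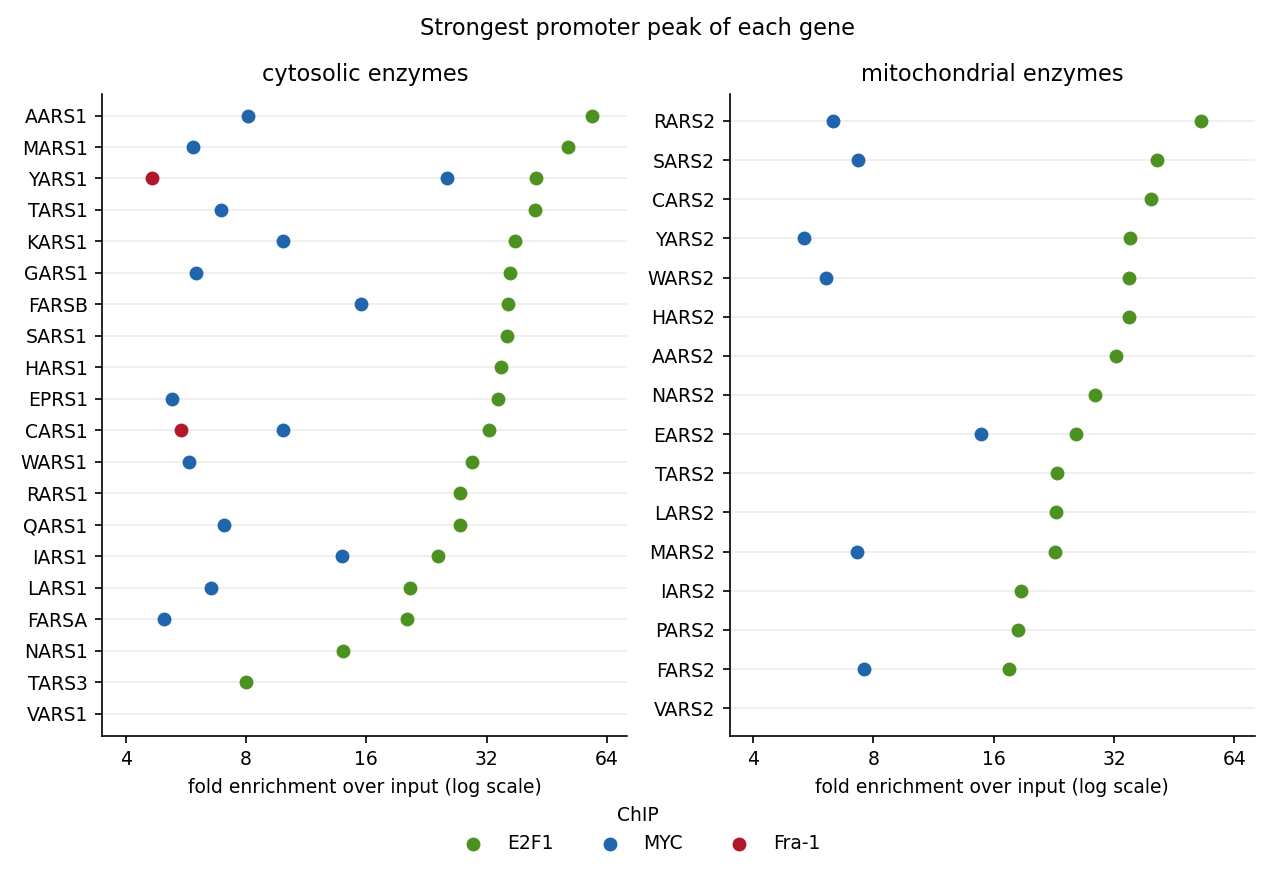
Fold enrichment over input of the strongest promoter peak of each factor (horizontal axis, log scale) for each cytosolic (left) and mitochondrial (right) synthetase gene, 1 point per gene and factor and no point where there was no peak. E2F1 points lie to the right, up to 58.8 at AARS1, the highest MYC point is 25.5 at YARS1, and VARS1 and VARS2 have no point.

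MYC summits lay close to the start of transcription. The median distance from the summit of the strongest peak to the nearest TSS of the same gene was 35 bp, against 127 bp in other MYC-bound genes. Of the 21 summits, 19 (90.5%) lay within 250 bp, against 66.2% in other MYC-bound genes. The exceptions were YARS2 at 476 bp and SARS2 at 674 bp. With start sites of any annotated gene counted, neighbours included, the medians were 31 and 73 bp. Relative to the canonical TSS, 11 of the 21 summits were upstream, 6 in an intron, 2 in a coding exon and 2 in an untranslated part of an exon. Counted from the canonical TSS, with upstream positions negative, they ranged from -980 bp at WARS1, the cytosolic tryptophanyl enzyme, to 577 bp at YARS2. The WARS1 summit was nevertheless 3 bp from another annotated TSS of that gene. Synthetase genes had up to 36 annotated start sites each. With only canonical start sites used, and those of neighbours included, the median distance was 88 bp.

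Every MYC peak at these promoters, 24 peaks in 21 genes, overlapped an E2F1 peak. From the summit of the strongest MYC peak to that of the E2F1 peak it overlapped, the median distance was 50 bp, ranging from 5 bp at EARS2 to 594 bp at YARS2, and 15 of 21 pairs lay within 100 bp. At EPRS1 and SARS2 the overlapped E2F1 peak, with folds of 20.8 and 14.2, was not the strongest of the gene. The E2F1 peaks were the longer ones, as at YARS1, where an E2F1 peak of 2074 bp covered the MYC peak of 765 bp. Having both factors in the promoter window was the rule across the genome too, at 3557 of the 3566 other MYC-bound genes. Whether the peaks themselves overlapped was not counted in those genes.

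**Figure D3:**
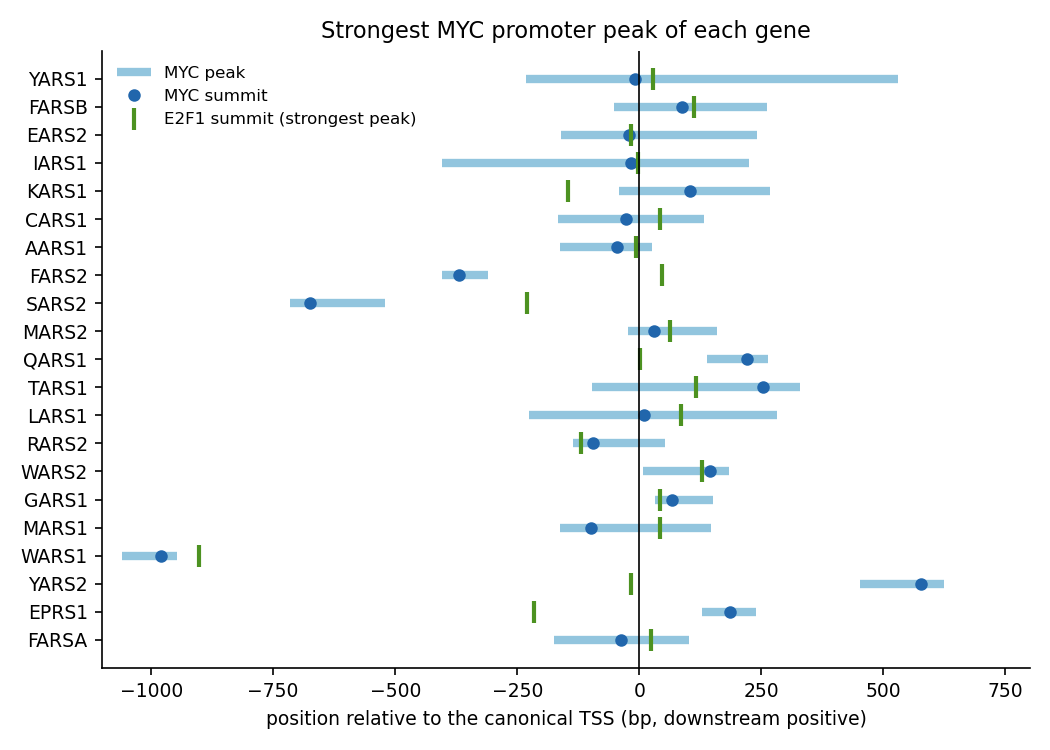
Strongest MYC peak (bar) with its summit (point), and summit of the strongest E2F1 promoter peak (tick), in bp from the canonical TSS (horizontal axis, negative is upstream), 1 row per MYC-bound synthetase gene. Most pairs lie together at the TSS, and the WARS1 pair stands near 1 kb upstream, with MYC at -980 bp and E2F1 at -902 bp.

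E2F1 peaks were high at the synthetase genes. AARS1 had the largest fold, 58.8, with a −log10 q of 160 and a pileup of 91. RARS2, the mitochondrial arginyl enzyme, followed with a fold of 52.8, a −log10 q of 133 and a pileup of 75. MARS1, the cytosolic methionyl enzyme, had 51.1, 129 and 73. These 3 genes belong to enzymes of both compartments. YARS1 came next with 42.5, 125 and 84. TARS1, the cytosolic threonyl enzyme, had 42.2, 123 and 83. Among these 5 genes with the highest E2F1 folds only YARS1 was also among the 5 highest for MYC. The lowest were TARS3, a second cytosolic threonyl gene, at 8.02 and NARS1, the cytosolic asparaginyl enzyme, at 14.0.

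Over the 34 bound genes the median E2F1 fold was 32.3, against 22.0 in 12287 other E2F1-bound genes. Of the 34, 27 lay above that median and 16 in the upper quartile of the others. Genes with a MYC peak had higher E2F1 folds both in the family and outside it. The medians were 34.9 with MYC and 27.5 without in the synthetases, and 32.1 with MYC and 18.5 without in the other genes. The gap between members and others was thus wider where MYC was missing. E2F1 summits lay a median of 27 bp from the nearest TSS of the same gene, against 91 bp in others. All 34 lay within 250 bp, against 74.0% in other E2F1-bound genes. Counted to start sites of any gene, the medians were 15 and 48 bp. In 19 of the 34 genes there was more than 1 E2F1 promoter peak, 64 in all. Windows lay around every annotated TSS, and the same count was not made in other genes. HARS1 and HARS2, the cytosolic and mitochondrial histidyl genes, start 85 bp apart on opposite strands and shared 1 peak with a fold of 34.8, so 63 of the peaks were distinct.

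The sequence at the summits was searched next, on both strands and within 50 bp, for the best-known element of each factor. CACGTG, the E-box of MYC, lay at 2 of 21 strongest MYC summits (9.52%), against 18.3% of other MYC-bound genes. An E2F element (TTTCCCGC, TTTGGCGC, TTTGCCGC or TTTCGCGC) lay at 1 of 34 E2F1 summits (2.94%), against 3.59%. TGACTCA, the AP-1 element, lay at 1 of the 2 Fra-1 summits, and at 50.3% of the strongest summits in other Fra-1-bound genes. Only these 4 members had the element of the factor at its strongest summit, and they read 5′ to 3′ on the strand of the gene, with the element in capitals. Positions are those of hg19 (GRCh37).
EARS2, MYC, chr16:23568669-23568698, minus strand, element at -15 bp from the canonical TSS: cagggagaagccCACGTGtgctattccatc
MARS2, MYC, chr2:198570070-198570099, plus strand, element at -11 bp: atgcgcctctcaCACGTGctgtcagaacgc
RARS2, E2F1, chr6:88299830-88299859, minus strand, element at -143 bp: tgcactcgggaTTTCCCGCgcgccctcgcg
CARS1, Fra-1, chr11:3080052-3080081, minus strand, element at -1417 bp: ctgggcttgggTGACTCAtggtcctagagt

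Both E-boxes belonged to mitochondrial enzymes, EARS2 and the methionyl enzyme MARS2, whose MYC peaks had folds of 14.9 and 7.27. YARS1, with the highest MYC fold, had no CACGTG within 50 bp of its summit. In whole promoters, from 250 bp upstream to 50 bp downstream of the canonical TSS, CACGTG was found in 4 of 36 (11.1%), IARS1, VARS1, EARS2 and MARS2, against 8.76% of other promoters. Promoter GC content was also similar, with a median of 62.3% against 63.7%. A matching word in the sequence is only a description, and its absence from a window says nothing about binding.

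Another element was more frequent in these promoters. TGATGNAA is the word shared by composite C/EBP-ATF elements, through which ATF4 acts on genes of the amino acid response. It was present in 9 of 36 synthetase promoters (25.0%), against 2.44% of other protein-coding promoters. Cytosolic genes held 8 of these, at 8 of 20 (40.0%), and mitochondrial genes 1 of 16 (6.25%). All 9 stretches are shown because they share a word that was not used to choose the genes. They read 5′ to 3′ on the strand of the gene, where TTNCATCA is the same word on the opposite strand, and capitals mark it.
AARS1, chr16:70323578-70323607, minus strand: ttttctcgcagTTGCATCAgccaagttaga
CARS1, chr11:3078637-3078666, minus strand: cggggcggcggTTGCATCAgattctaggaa
GARS1, chr7:30634450-30634479, plus strand: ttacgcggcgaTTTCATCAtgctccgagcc
IARS1, chr9:95055974-95056003, minus strand: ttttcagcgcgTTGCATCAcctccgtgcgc
MARS1, chr12:57881836-57881865, plus strand: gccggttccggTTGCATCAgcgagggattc
NARS1, chr18:55289036-55289065, minus strand: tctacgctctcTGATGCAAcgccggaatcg
TARS1, chr5:33441062-33441091, plus strand: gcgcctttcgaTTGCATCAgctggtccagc
YARS1, chr1:33282938-33282967, minus strand: ccgagcccagcTGATGCAAcctggctggac
YARS2, chr12:32909010-32909039, minus strand: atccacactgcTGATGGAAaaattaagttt

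The element sat near the start of transcription in most of them, from -33 bp at GARS1, the glycyl enzyme, to 14 bp at NARS1. AARS1 and YARS2 were the exceptions, at -187 and -197 bp. Of the 9 genes, 8 had a MYC peak, all but NARS1. In the other protein-coding genes the element was not more frequent with MYC, at 1.52% of promoters with a MYC peak and 2.64% of those without. Within 50 bp of the strongest MYC summit it was found in 5 of 21 synthetase genes (23.8%), CARS1, EPRS1, FARS2, IARS1 and YARS1, against 1.12% of other MYC-bound genes. At E2F1 summits it was found in 4 of 34 (11.8%), CARS1, IARS1, MARS1 and YARS1, against 0.415%. The 3 genes CARS1, IARS1 and YARS1 thus had the word beside the summits of both factors. No binding of ATF4 was measured in these data.

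**Figure D4:**
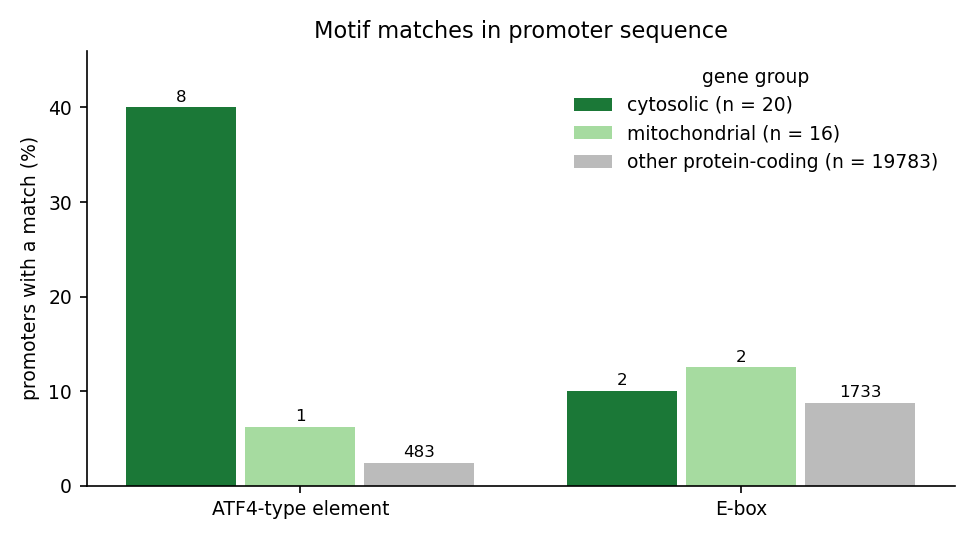
Percent of promoters, from 250 bp upstream to 50 bp downstream of the canonical TSS, with TGATGNAA (ATF4-type element) and CACGTG (E-box) in cytosolic and mitochondrial synthetase genes and in other protein-coding genes. TGATGNAA stands out at 40.0% of cytosolic synthetase promoters against 2.44% of other promoters, while CACGTG stands at 10.0%, 12.5% and 8.76%.

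Fra-1 was found at CARS1 and YARS1 alone, and both peaks were low. At CARS1 (ENSG00000110619) the peak at chr11:3079968-3080159 had a fold of 5.52, a −log10 q of 10.1 and a pileup of 26. Its summit lay 1399 bp upstream of the canonical TSS beside the TGACTCA printed for this gene, and it overlapped an E2F1 peak but not a MYC peak. The strongest E2F1 peak of CARS1, nearer the TSS, had a fold of 32.4, a −log10 q of 85.8 and a pileup of 63. At YARS1 the peak at chr1:33282946-33283056 had a fold of 4.66, a −log10 q of 2.97 and a pileup of 8. It lay 10 bp downstream of the canonical TSS of YARS1, overlapped both the MYC and the E2F1 peak and had no TGACTCA within 50 bp. Both folds were below the median of 8.38 in the other genes with a Fra-1 promoter peak, and with a −log10 q of at least 5 or a fold of at least 5 only CARS1 was left. TGACTCA was found in 0 of 36 synthetase promoters, against 3.58% of others.

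Over wider distances the Fra-1 shares of synthetase and other genes were close. A Fra-1 summit lay within 50 kb of the canonical TSS in 16 of 36 genes (44.4%), against 45.4% of others. Summits in promoters are included in both shares. By compartment these were 11 of 20 cytosolic and 5 of 16 mitochondrial genes. In the gene bodies, outside promoter windows, Fra-1 peaks were found in 5 of 36 genes (13.9%), against 17.3% of others, with median gene lengths of 37.4 and 27.2 kb. There were 12 such peaks, with folds from 5.2 to 16.3. TGACTCA lay within 50 bp of the summit in 9 of the 12 (75.0%), against 53.8% of Fra-1 peaks in the bodies of other genes. FARS2, the mitochondrial phenylalanyl enzyme, held 6 of them in its introns. LARS2, the mitochondrial leucyl enzyme, held 3. The farthest of the LARS2 summits, 163324 bp downstream of the canonical TSS, lay past the 3′ end of the canonical transcript. The highest of the 12 peaks, with a fold of 16.3, lay 26349 bp downstream of the FARS2 TSS. MYC had 1 such peak, past the 3′ end of AARS1, with a fold of 7.32.

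VARS1 and VARS2, the cytosolic and mitochondrial valyl enzymes, were the only members without a peak of any factor. Both lie in the HLA region, VARS1 (ENSG00000204394) at chr6:31745295-31763529 and VARS2 (ENSG00000137411) at chr6:30881982-30894236. No peak of any of the 3 factors was listed between positions 28411449 and 33538874 of chromosome 6, a stretch of 5.13 Mb with 184 protein-coding genes. The peak-free stretch with the next most genes held 62. The lists named 18 E2F1 peaks and 1 MYC peak on the alternative haplotype sequences of chromosome 6, and the authors kept uniquely mapping reads, whose part in this gap was not tested. The 2 genes can therefore not be scored as unbound. The HLA region, taken from position 29690552 to 33057473, held 138 protein-coding genes and was smaller than the peak-free stretch. Without the genes of the HLA region, E2F1 lay at 34 of 34 synthetase genes against 61.7% of others, and MYC at 21 of 34 against 17.9%. The remaining genes of the peak-free stretch were kept among the others.

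The other 13 genes without a MYC peak had E2F1 only. They were AARS2, CARS2, HARS1, HARS2, IARS2, LARS2, NARS1, NARS2, PARS2, RARS1, SARS1, TARS2 and TARS3, of which 5 are cytosolic. Their E2F1 folds ran from 8.02 at TARS3 to 39.5 at CARS2. That CARS2 summit lay at -7175 bp from the canonical TSS and 231 bp from the nearest CARS2 TSS. A TSS of some annotated gene lay only 38 bp from it, so this peak could belong to a neighbour. The E2F1 peak nearest the canonical CARS2 TSS, with its summit at -348 bp, had a fold of 11.3. NARS1 was the farthest from MYC, with the nearest peak 8254258 bp away.

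Some peaks could belong to a neighbour. Another protein-coding gene started within 1 kb of 8 synthetase genes (22.2%), against 14.2% of other genes. All 8 had this neighbour on the opposite strand, where 10.0% of other genes had one. Besides the HARS1 and HARS2 pair, these were EARS2 with UBFD1, FARS2 with LYRM4, KARS1 with TERF2IP, RARS2 with ORC3, SARS2 with MRPS12 and YARS1 with S100PBP. All 6 of these had a MYC peak, among them 3 of the 5 highest MYC folds (YARS1, EARS2 and KARS1), and the peak lists do not tell which gene of such a pair a peak serves.

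Genes that work with the synthetases were taken from lists of 34 genes chosen by function. E2F1 lay at all 34, MYC at 21 and Fra-1 at 9, against 61.2%, 17.8% and 13.3% of the protein-coding genes other than synthetases. High shares of MYC and E2F1 were thus not particular to the synthetase genes. Of the 3 scaffold proteins of the multi-synthetase complex, AIMP2 (MYC fold 16.9) and EEF1E1 (10.6) had MYC and AIMP1 did not. All 4 cytosolic elongation factor genes had MYC, with folds of 13.9 at EEF2, 9.88 at EEF1G, 9.16 at EEF1B2 and 6.85 at EEF1A1. MYC lay at 4 of 8 genes of mitochondrial translation. The folds were 9.75 at GATC, a subunit of the amidotransferase that completes glutaminyl-tRNA, 8.63 at TSFM, 8.59 at GFM2 and 7.57 at TUFM. Of these, TSFM and TUFM encode elongation factors. Of the 3 trans-editing genes, AARSD1, which clears mischarged alanyl-tRNA, had a MYC fold of 14.9.

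The 16 genes of the amino acid response and amino acid supply had MYC at 10, against the same 17.8%. The largest MYC fold was at SLC3A2 (21.0), the heavy chain of amino acid transporters, followed by TRIB3 (13.4), EIF2S1 (11.6) and ATF4 itself (11.5). The others were PSAT1 (8.84), PPP1R15A (8.47), DDIT3 (7.64), SLC7A5 (7.47), SHMT2 (7.04) and CHAC1 (5.93). A Fra-1 promoter peak lay at 8 of these 16, against 13.3%, with the largest fold, 18.8, at PPP1R15A, which encodes a regulatory subunit of the eIF2alpha phosphatase.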

How the data were processed

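In LM2 cells, 1 library per factor (Fra-1, MYC, E2F1) gave a list of ChIP-Seq peaks. EZH2 and input were not analysed here, nor was the remaining TF of the study. Per the paper's methods and the submitters' processing notes, reads were trimmed with Trimmomatic 0.27, aligned to masked hg19 with Bowtie 0.12.5 keeping unique matches, and freed of duplicates. Peaks were called by the authors against the shared input, using MACS2 (2.0.10.20120913) and a limit of 0.01 on q. The deposited signal is the pileup of fragments at a summit, for which MACS2 brought the larger of both libraries down to the smaller. Fold enrichment, as deposited, is a ratio of that pileup to the input background around it. For p- and q-values the authors deposited −log10 values. The interval files deposited beside the tables hold the same peaks and were not used.

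Peaks were joined to GENCODE 44 start sites on GRCh37 by an overlap of at least 1 bp with the window from 2 kb upstream to 2.5 kb downstream. The peak with the largest fold stood for a gene. Motifs were read from GRCh37 on both strands within 50 bp of summits, or from 250 bp upstream to 50 bp downstream of the canonical TSS, which 19783 of the 20062 other genes had in the annotation. Neighbouring genes and distances to the canonical TSS used the same genes. Python 3.11.15, pandas 2.3.3, numpy 2.4.6 and pysam 0.24.0 were used, with figures by matplotlib 3.10.9. Tested on simulated data, 400 of 400 genes at window edges and 700 of 700 planted motifs came out as planted.

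The genes and lists were chosen with earlier results of these data known. Any listed gene could be named. Full values were given for the 5 highest folds per factor, for genes with all 3 factors, with Fra-1 or with no peak, and companion values for those with MYC. Other genes named as extremes, exceptions or neighbours were chosen after their values were seen. Alternative thresholds, windows, start sites and gene groupings were also computed. Tag numbers limit the weaker calls, and no interval was given because peaks of 1 library are not replicates.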

Additional observations from a re-analysis of the deposited data

How the results depend on the processing

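Of 169 values under alternative settings, 133 moved little and 36 moved more, by 2 unlike rules. Counts and medians were scored as moved when they changed by more than 1.5 times or fell to 0. Percents of other genes were scored as moved outside the Wilson interval of the reported percent, which is narrow with so many genes. The E2F1 percent, 61.2 as reported and 60.3 at the stricter q, thus counts as moved. The MYC and E2F1 counts of synthetase genes stayed within 1.5 times of the reported ones throughout, and the lowest were 15 for MYC at a −log10 q of at least 5 and 26 for E2F1 with equal numbers of peaks. The Fra-1 calls did not hold as well. Fra-1 was left at 1 gene, a cytosolic one, and all 3 factors at 1 gene, with a fold of 5 or more, a −log10 q of at least 5 or a window of 1 kb either side of the TSS, and at 0 genes with equal numbers of peaks. The median distance of the Fra-1 summit was then 1209 bp under either threshold and 9 bp in the narrower window, where a different gene was left. The percent of other protein-coding genes with Fra-1, MYC and E2F1 was 12, 12.7 and 60.3 at a −log10 q of at least 5. It was 12.5, 16.8 and 60.4 at a fold of 5 or more, and 9.86, 16.9 and 59.7 in the narrower window. It was 7.2, 15.8 and 57.2 with the canonical TSS and 10.2, 16.8 and 59 with start sites of protein-coding transcripts. With equal numbers of peaks it was 3.42 for Fra-1 and 25.6 for E2F1. With only canonical start sites used, those of any gene included, the median summit distance was 88 bp for MYC and 45 bp for E2F1. Counting any promoter peak gave 2 genes with an E2F element. With GARS1 and KARS1 counted as mitochondrial, MYC lay at 12 cytosolic and 9 mitochondrial genes. Counted to start sites of the same gene only, the median E2F1 summit distance was 27 bp. This setting and the one without the HLA region were chosen after seeing the data. No paired analysis was possible because each factor had 1 library and no result came from a test between samples.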
